A study of Mus musculus with 235 samples.

Results

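Isoniazid, a drug against tuberculosis that can injure the liver, was given to female mice of the inbred strain LP/J, and the RNA of the liver was measured 24 hours after the last of 3 daily doses. The LP/J arrays were found by their labels: 3 arrays came from isoniazid-treated animals (100 mg/kg by oral gavage) and 4 from animals given the vehicle, sterile water, 7 of the 235 arrays in the series. The other 228 arrays, 120 vehicle and 108 isoniazid, came from 30 other inbred strains under the same dosing. All animals were females aged 8 to 10 weeks when the study began, all tissue was the left liver lobe, and each array held 1 animal. LP/J was coded as a strain without isoniazid-induced steatosis, like 18 of the 31 strains. One of its isoniazid-treated animals died and was left out by the submitters, as happened in 9 of the 31 strains, so the treated group holds survivors only. LP/J is 1 inbred genotype, no other dose or time was given, and the spread below is that between animals except where a spread among strains is named.

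Cholesterol is made in the liver from acetyl-CoA through mevalonate, isoprenoid diphosphates, squalene and lanosterol. The enzymes of this route share a transcriptional activator, SREBP-2, the product of Srebf2, which is held in the endoplasmic reticulum with INSIG proteins while sterols are plentiful and released when they are scarce. These promoters typically carry sterol regulatory elements beside CCAAT boxes, which bind the factor NF-Y. Isoniazid itself is acetylated and hydrolysed in hepatocytes, and its hydrazine products are held to take part in liver injury.

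The deposited values were log2 intensities, and a log2 difference of 1 is a doubling. A gene was called when the adjusted p of limma's moderated test, fitted over all 235 arrays and adjusted by Benjamini-Hochberg over 18146 genes, was below 0.05. Each of the 7 LP/J arrays correlated best with the LP/J group over the 2000 genes used for that match, and hepatocyte markers were high in all of them, with albumin (Alb) at 14.41 to 14.59 log2 units. One LP/J array stood apart. Isoniazid animal 1 had an SD of log2 values of 2.15, against 2.25 to 2.31 in the other 6, and so belonged to a set of 21 narrow-spread arrays of the series (10 isoniazid, 11 vehicle, SD 2.10 to 2.20). What sets these arrays apart was not tested, and calls that end without this animal are marked as such.

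In LP/J, 147 of 18146 genes were called (0.81%), of which 63 (0.347%) rose and 84 (0.463%) fell with isoniazid. These calls lean on the spread between animals pooled over all strains: with the 7 LP/J arrays fitted alone, 0 genes were called. The genes that rose were led by the enzymes of cholesterol synthesis, together with the lipid droplet coat gene Plin2, the desaturase Fads2, the bile acid enzyme Cyp8b1, the RNA-binding protein Tardbp and trehalase. The genes that fell included the steroid hydroxylase Cyp17a1, the phosphatidate phosphatase Lpin1, the acute-phase glycoprotein Lrg1 and the mitochondrial amino acid enzymes Prodh and Glud1. Without isoniazid animal 1 the count was 79, of which 55 were among the 147 (34 that rose and 21 that fell), and all 147 kept their direction. The calls rested on isoniazid animal 3 as well: without it 88 genes were called, of which 45 were among the 147. Calls that end without animal 3 are not marked below. Counted over all genes, 3.2% had the 3 isoniazid arrays above every vehicle array and 4.68% had them below. Of the 147 called genes, 135 had groups that did not overlap, but they were chosen on these same arrays, which favours such separation. For those 135 the direction without animal 1 was fixed by the lack of overlap.

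The largest changes were those of the cholesterol synthesis genes. Idi1, the isomerase of isopentenyl diphosphate, read 6.43, 6.96, 6.56 and 7.00 log2 units in vehicle animals 1 to 4 and 10.81, 8.74 and 8.70 in isoniazid animals 1 to 3. The treated animals lay above all controls, with animal 1 far above the other pair. The difference was 2.68 ± 0.54 (SE, n = 3 and 4, a 6.41-fold rise, limma adjusted p = 0.0016). Msmo1, the methylsterol oxidase, read 7.06 to 7.58 in vehicle and 10.91, 9.15 and 9.08 in isoniazid animals, a rise of 2.33 ± 0.49 (SE). Cyp51, the lanosterol demethylase, read 4.72 to 5.88 against 8.73, 7.13 and 7.20, a rise of 2.29 ± 0.48 (SE). Both had a limma adjusted p of 0.0024, and in both the groups did not overlap. These values are those of the brightest probe set. The 2 Msmo1 probe sets ranged from -0.02 to 2.33 and the 3 of Cyp51 from 0.65 to 2.34.

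Along the route, enzymes from its first to its last steps rose. Hmgcs1, which makes HMG-CoA, read 9.14, 9.45, 9.27 and 9.41 in vehicle and 12.20, 10.15 and 10.40 in isoniazid animals and rose by 1.60 ± 0.34 (SE, limma adjusted p = 0.0035). Of the mevalonate enzymes, Mvk rose by 0.81 and Mvd went from 4.23 to 5.42 in vehicle to 7.51, 5.91 and 5.86 in isoniazid animals. The farnesyl diphosphate synthase Fdps rose by 1.81. The squalene epoxidase Sqle rose by 2.09, from 4.77 to 5.19 in vehicle to 8.04, 6.42 and 6.77 in isoniazid animals, and the lanosterol synthase Lss by 1.45. Of the later enzymes, Hsd17b7 rose by 0.96 and Dhcr7, which makes cholesterol from its precursor, by 1.06. Insig1, the feedback regulator that retains SREBP in the endoplasmic reticulum and is itself an SREBP target, rose by 1.15 ± 0.31 (SE, limma adjusted p = 0.035). In all of these the groups did not overlap. Other probe sets of some of these genes moved less. The 2 Fdps probe sets ranged from -0.10 to 1.81 and the 5 of Hmgcs1 from 0.05 to 1.67. Those of Lss, Mvd, Mvk and Hsd17b7 were all above 0, the lowest at 0.67, 1.30, 0.47 and 0.28.

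**Figure D1:**
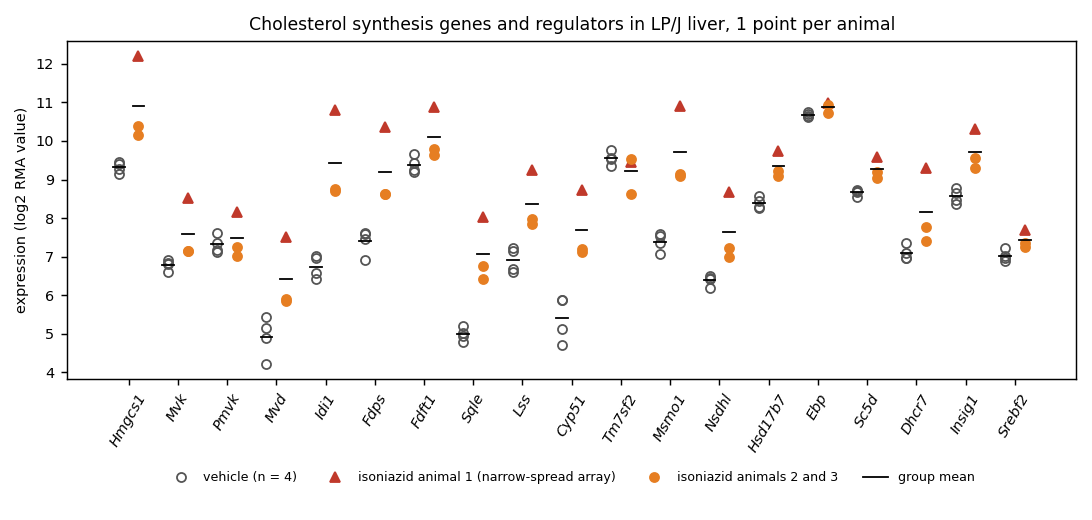
Log2 expression of 19 cholesterol synthesis genes and regulators (y axis) in each LP/J animal, with vehicle animals as open circles, isoniazid animals 2 and 3 as filled circles, isoniazid animal 1 as triangles and group means as short lines. In 15 of the 19 genes all 3 isoniazid animals lie above all 4 vehicle animals, and the triangle is the highest point in 18 of them.

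Of the 24 genes of the cholesterol list, 19 were measured by a probe set with 1 gene name, 12 were called higher and none lower, against 0.347% of all genes called higher, and 18 were above 0, against 46.9% of all genes. The other listed genes were not analysed here. The median difference of the list was 1.15, against -0.02 over all genes. Of the 7 members that were not called, Nsdhl differed by 1.24 (limma adjusted p = 0.11), Sc5d by 0.61 and Srebf2 itself by 0.41, each with groups that did not overlap. The 3 Sc5d probe sets ranged from -0.26 to 0.61. Fdft1, the squalene synthase, differed by 0.72, Ebp by 0.20 and Pmvk by 0.16, with overlap. Tm7sf2 was the only member below 0, at -0.35.

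Isoniazid animal 1 was the highest of the 7 LP/J animals for 18 of the 19 genes, and the calls of this group did not pass without it. Its mean over the 19 genes was 9.53 log2 units, the highest of all 235 arrays, and animals 2 and 3, at 8.35 and 8.27, ranked 21st and 24th, while the vehicle animals read 7.42 to 7.65 and ranked from 67th to 126th. Without animal 1 the median of the list was 0.76 and 0 of the 12 called genes passed (limma adjusted p = 0.11 to 0.68, both treated animals still above the controls). The differences were then 0.96 for Hmgcs1, 0.35 for Mvk, 0.50 for Dhcr7 and 0.76 for Hsd17b7. With all 21 narrow-spread arrays left out 4 passed: Idi1, Msmo1, Cyp51 and Lss. Idi1 then differed by 1.98 (limma adjusted p = 0.04). In 19 of the other 20 narrow-spread arrays the median of the list lay below that of the other animals of their group, by up to 1.20 log2 units. In the remaining array, isoniazid animal 3 of C57Bl/6J, it was 0.21 above. Over all genes, the deviations of these 20 arrays correlated with those of LP/J animal 1 at r = 0.42 to 0.79, highest in that C57Bl/6J array. The part of array spread in the excess of animal 1 was not tested. Among the LP/J arrays scanned on one date, isoniazid animal 3 exceeded vehicle animals 1 and 4 by a list median of 0.63, and on another date isoniazid animal 1 exceeded vehicle animal 2 by 2.26. In bulk liver, a change in the share of a cell type and a change in RNA per cell cannot be told apart.

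The position of LP/J among the strains was near the top. The mean of the other 30 strains had a list median of 0.19, single strains ran from -0.86 in DBA/2J to 1.17 in C57Bl/6J, and LP/J was second. C57Bl/6J, also without steatosis and with no death, had an Idi1 difference of 2.86, a Sqle difference of 2.61 and an Hmgcs1 difference of 1.45. For 14 of the 19 genes LP/J was among the 2 highest of the 31 strains, as it was for 4.3% of all genes. It ranked first for Hmgcs1, Lss and Srebf2 and second for Idi1, Msmo1, Cyp51, Sqle and Fdps. The first places rested on isoniazid animal 1. Without it the differences were 0.96 for Hmgcs1, 1.00 for Lss and 0.28 for Srebf2. The highest of the other strains were at 1.45, 1.05 and 0.34. The list median without animal 1, 0.76, was just above that of A/J, 0.75. The test of LP/J against the mean of the others did not pass for any of them. For Hmgcs1 the difference from that mean was 1.56 (95% interval 0.88 to 2.25, limma adjusted p = 0.079), and for Idi1 it was 2.17 (1.09 to 3.25, limma adjusted p = 0.21).

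**Figure D2:**
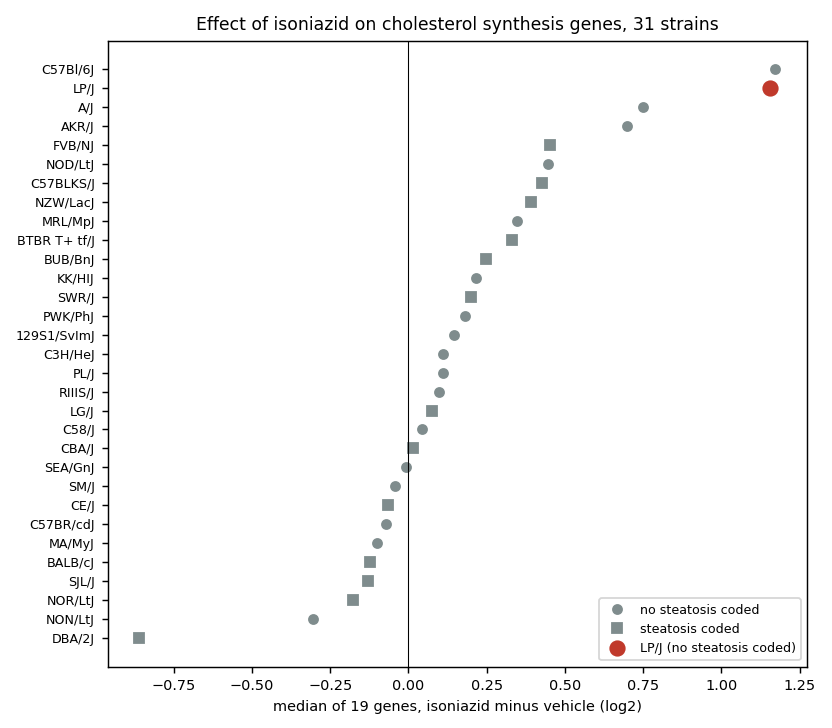
Median isoniazid-minus-vehicle difference of the 19 cholesterol synthesis genes (x axis, log2) in each of the 31 strains, with steatosis-coded strains as squares and strains without it as circles. LP/J, the large point, lies at 1.15, next to C57Bl/6J at 1.17, and DBA/2J is lowest at -0.86.

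The promoters of 3 of these genes are shown because the group that rose is known for a shared promoter grammar. The windows run from 250 bases before to 50 after the annotated start (RefSeq, GRCm38.p6). Capitals mark CCAAT on either strand (CCAAT or ATTGG) and, in Hmgcs1, the sterol regulatory element TCACNCCAC, searched on both strands, which did not overlap a CCAAT.
Hmgcs1 (chr13:119690101-119690400, + strand): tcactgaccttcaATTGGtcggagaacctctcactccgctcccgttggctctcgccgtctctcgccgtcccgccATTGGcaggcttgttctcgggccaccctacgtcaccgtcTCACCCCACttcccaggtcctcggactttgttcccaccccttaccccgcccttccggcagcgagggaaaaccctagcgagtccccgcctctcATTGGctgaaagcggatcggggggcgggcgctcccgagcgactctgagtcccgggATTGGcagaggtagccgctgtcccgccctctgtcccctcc
Idi1 (chr13:8885356-8885655, + strand): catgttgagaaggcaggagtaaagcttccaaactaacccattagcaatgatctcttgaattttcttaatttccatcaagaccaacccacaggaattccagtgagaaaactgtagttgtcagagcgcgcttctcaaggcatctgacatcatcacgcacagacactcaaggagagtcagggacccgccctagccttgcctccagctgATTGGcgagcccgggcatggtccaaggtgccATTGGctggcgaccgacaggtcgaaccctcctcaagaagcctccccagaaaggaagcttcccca
Mvk (chr5:114444019-114444318, + strand): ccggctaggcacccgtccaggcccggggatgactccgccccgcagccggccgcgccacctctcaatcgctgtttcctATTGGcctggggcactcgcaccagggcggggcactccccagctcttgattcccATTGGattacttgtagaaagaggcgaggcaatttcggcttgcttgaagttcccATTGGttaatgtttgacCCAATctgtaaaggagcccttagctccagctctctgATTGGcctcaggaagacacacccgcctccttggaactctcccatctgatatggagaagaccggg
Hmgcs1 held 4 CCAAT matches, Idi1 held 2 and Mvk held 5. Windows were found for 16 of the 19 measured genes, with several annotated starts for Dhcr7 and Pmvk. CCAAT was in 16 of the 19 windows of these genes, against 37.4% of 32851 promoter windows. The element TCACNCCAC was found in 1 of the 19, that of Hmgcs1, and in 1.24% of all windows. The Mvk window shares 259 bases with that of Mmab, which is transcribed the other way and encodes the adenosyltransferase that makes the coenzyme form of vitamin B12. Mmab, chosen for this neighbourhood after its values were seen, also rose, by 1.04 ± 0.29 (SE, limma adjusted p = 0.047), from 4.32 to 4.84 in vehicle to 5.82, 5.69 and 5.53 in isoniazid animals. The call ended without animal 1 (0.97, limma adjusted p = 0.21). Its probe sets differed, from 0.06 to 1.04.

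Several genes rose without resting on isoniazid animal 1. Tardbp, whose product binds RNA and regulates splicing, read 6.30, 6.83, 6.22 and 7.33 in vehicle and 7.46, 8.03 and 8.79 in isoniazid animals. Animal 1 was here the lowest of the treated, and the rise was 1.42 ± 0.22 (SE, limma adjusted p = 5.0e-06) with all animals and 1.73 without animal 1. The LP/J vehicle level of this probe set was the lowest of the 31 strains, the effect ranked second behind BTBR T+ tf/J, and the 5 Tardbp probe sets ranged from -0.27 to 1.42, so the rise belongs to the brightest probe set and not to all. Here and for Plin2 below, the vehicle arrays enter both level and effect, so a low level and a high effect are not independent. The Tardbp difference from the mean of the other strains was 1.05 (95% interval 0.61 to 1.48, limma adjusted p = 0.072).

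Treh, which encodes trehalase, read 2.77 to 3.16 in vehicle and 3.81, 4.00 and 5.82 in isoniazid animals. It rose by 1.61 ± 0.31 (SE, limma adjusted p = 0.00064), the highest of the 31 strains. Serpina7, the plasma carrier of thyroxine, read 2.17 to 3.03 in vehicle and 4.23, 3.94 and 4.52 in isoniazid animals. Its rise of 1.62 was the same without animal 1, but both genes sat low on the scale of these arrays, where the array medians of LP/J were 4.00 to 4.18.

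Plin2, Fads2, Cyp8b1, Sec11c, Pgk1 and Apoa5 also rose. Plin2, a coat protein of lipid droplets, read 11.02, 10.84, 11.39 and 11.62 in vehicle and 11.68, 12.01 and 12.59 in isoniazid animals. Every treated animal exceeded every control, animal 1 by little, and the rise was 0.88 ± 0.23 (SE, limma adjusted p = 0.027, or 1.08 and 0.015 without animal 1). The Plin2 vehicle level was the lowest of the 31 strains and the effect ranked 3rd, with a mean of 0.17 in the other strains. Fads2, a desaturase of polyunsaturated fatty acid synthesis, rose by 1.04 ± 0.21 (SE, limma adjusted p = 0.0021), from 8.83 to 9.24 in vehicle to 9.96, 9.97 and 10.19 in isoniazid animals. Cyp8b1, the sterol hydroxylase of cholic acid synthesis, rose by 0.91, Sec11c, a subunit of the signal peptidase, by 0.76, the glycolytic kinase Pgk1 by 0.41 and Apoa5, an apolipoprotein that favours clearance of triglyceride, by 0.31. Of these 4, Sec11c and Pgk1 also passed without animal 1, while Cyp8b1 (limma adjusted p = 0.067) and Apoa5 (0.13) did not. The 2 Sec11c probe sets ranged from -0.08 to 0.76 with all animals. The lists themselves did not lie higher: lipid droplet and triglyceride genes were above 0 in 11 of 23, with a median of -0.06 (0.03 without animal 1), Plin2 called higher and Lpin1 lower, and lipoprotein genes were above 0 in 4 of 17, with a median of -0.05 and Apoa5 the 1 called.

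**Figure D3:**
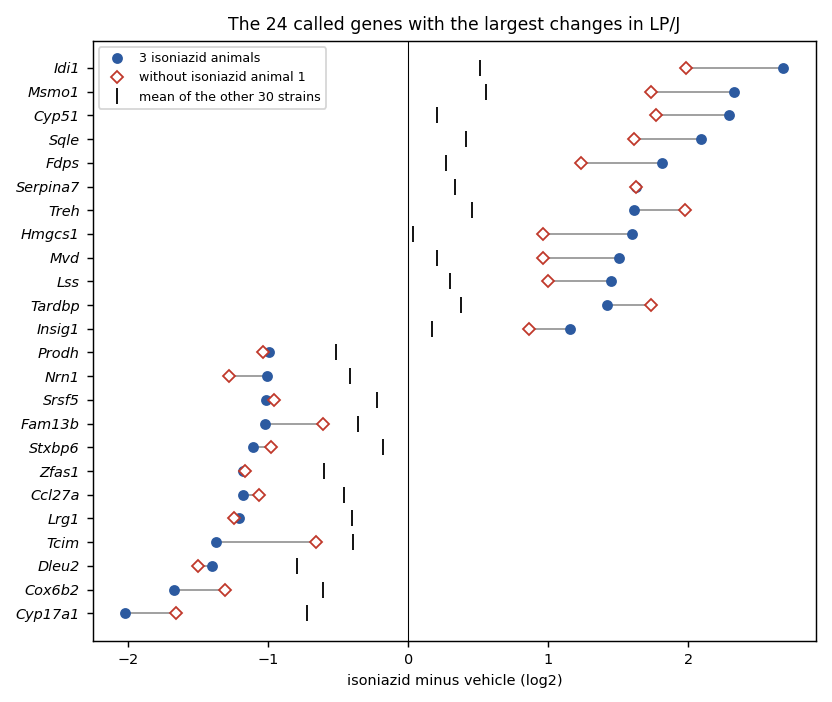
Isoniazid-minus-vehicle difference (x axis, log2) of the 12 highest and 12 lowest called genes without overlap in LP/J, with all 3 isoniazid animals (filled circles), without isoniazid animal 1 (open diamonds) and as the mean of the other 30 strains (ticks). All diamonds lie on the side of 0 of their circles, the cholesterol synthesis genes move towards 0, and Treh, Tardbp and Nrn1 are among those that move away from it.

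Among the genes that fell, Cyp17a1, a steroid hydroxylase, had the largest change. It read 10.70, 11.01, 10.71 and 10.70 in vehicle and 8.04, 9.53 and 8.70 in isoniazid animals, and fell by 2.02 (SE 0.47, a 4.06-fold drop, limma adjusted p = 0.0098). Without animal 1 the difference was -1.66, no longer called (limma adjusted p = 0.16). Cox6b2, known as the testis form of a cytochrome c oxidase subunit, read 8.88 to 9.19 in vehicle and 6.63, 8.18 and 7.26 in isoniazid animals. It fell by 1.67 (SE 0.27, limma adjusted p = 2.8e-05) and was below 0 in all 31 strains, with a mean of -0.61 in the others.

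The noncoding transcripts Dleu2 and Zfas1 fell by 1.41 and 1.18, and both were below 0 in all 31 strains. Dleu2 read 7.06 to 7.35 in vehicle and 5.96, 6.31 and 5.04 in isoniazid animals. Its 3 probe sets ranged from -1.41 to 0.15. Lrg1, a secreted acute-phase glycoprotein, fell by 1.21 (SE 0.28, limma adjusted p = 0.0088), from 12.24 to 12.66 down to 11.33, 12.00 and 10.45. Nrn1, neuritin, fell by 1.01, the chemokine Ccl27a by 1.18, the SNARE regulator Stxbp6 by 1.11, and the splicing factor Srsf5 by 1.02. Of these 4, Nrn1 passed without animal 1, and Ccl27a (limma adjusted p = 0.17), Stxbp6 (0.15) and Srsf5 (0.080) did not. Tcim, a regulator of transcription and immune response, fell by 1.37 with animal 1, at 4.35, and differed by -0.66 without it, no longer called.

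In the amino acid catabolism list 2 of 23 genes were called, Glud1 and Prodh, both lower, with 9 above 0 and a median of -0.06. Glud1, the mitochondrial glutamate dehydrogenase, read 12.21, 12.38, 12.26 and 12.18 in vehicle and 11.71, 11.72 and 11.63 in isoniazid animals. The groups stood well apart, and the fall was 0.57 (SE 0.10, limma adjusted p = 8.2e-05). LP/J had the highest Glud1 vehicle level of the 31 strains and the lowest effect. Because vehicle arrays enter both, a high vehicle level and a low effect are not independent. Prodh, the first enzyme of proline breakdown, fell by 0.99, from 9.67 to 10.13 down to 9.08, 9.43 and 8.47. In the bile acid list, Slc27a5, which activates bile acids for conjugation, fell by 0.45 (limma adjusted p = 0.00071) and Cyp27a1, a mitochondrial sterol hydroxylase, by 0.72 (limma adjusted p = 0.0098, and 0.084 without animal 1). With Cyp8b1 they were the 3 called of 23 genes in that list, whose median was -0.22. The thyroid- and glucocorticoid-responsive factor Klf9 fell by 0.58, the amino acid transporter chain Slc3a2 by 0.57 and Herpud1, of endoplasmic reticulum degradation, by 0.76. The last 3 calls ended without animal 1 (limma adjusted p = 0.13, 0.16 and 0.35). The 7 Klf9 probe sets ranged from -0.75 to 0.08 with all animals.

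Lpin1 fell in LP/J, while its mean effect in the other strains, 0.14, was not called (limma adjusted p = 0.22). That effect was above 0 in 18 of the other strains, so they show no clear direction. Lpin1 encodes a phosphatidate phosphatase of triglyceride synthesis that is also a coactivator of fat oxidation genes. It read 9.29, 10.17, 8.77 and 8.11 in vehicle and 6.61, 7.33 and 8.38 in isoniazid animals, so the groups overlapped. It fell by 1.64 (SE 0.45, limma adjusted p = 0.044), the lowest of the 31 strains (LP/J was the highest or lowest for 4.39% of all genes), where the others averaged 0.14 and ranged from -1.41 to 1.40. The difference from their mean was -1.78 (95% interval -2.68 to -0.88, limma adjusted p = 0.21). Without animal 1 the effect was -1.23 and not called.

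Many of the called genes, whether they rose or fell, were low in the narrow-spread arrays of other strains. Of the 84 genes that fell, 78 (92.9%) were also lower in the other 20 narrow-spread arrays than in the other animals of their groups, a direction shared by 54.5% of all genes. Of the 63 that rose, only 8 were higher in those arrays, so low values there were not particular to the genes that fell. The median deviation in those arrays was -0.27 for the genes that fell and -0.23 for those that rose, against -0.07 over all genes. The part of array spread in the falls and rises was not tested beyond leaving the arrays out. With all 21 left out of the fit, 307 genes were called, 223 that rose and 84 that fell, and 104 of the 147 were among them.

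The responses of LP/J and of the other strains were then compared as a whole. In the mean of the other 30 strains 4982 genes were called (27.5%). Of the 147 LP/J genes, 144 had the same sign there, 134 were also called there and 0 were called in the opposite direction. All 147 were larger in LP/J, as the choice of genes by their size in LP/J favours. Across all genes the LP/J effects correlated with the mean of the others at r = 0.440, the 11th highest of 31 strains, with a slope of 1.01, as a description across genes that are not independent. LP/J ranked 13th in the number of called genes, where the median strain had 80. Of the 5 strains with 3 isoniazid arrays, LG/J had 538 called genes, LP/J 147, NON/LtJ 9, RIIIS/J 2 and PL/J 0. Among single strains the LP/J effects correlated most with those of BTBR T+ tf/J, at r = 0.524, and least with PL/J, at r = -0.126. That of 129S1/SvImJ was 0.277.

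**Figure D4:**
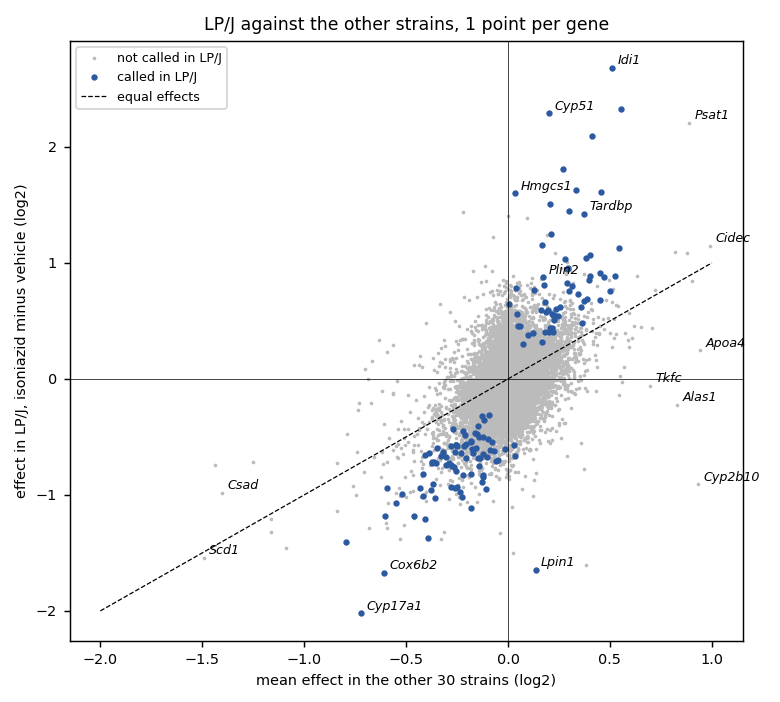
Isoniazid-minus-vehicle difference of each gene in LP/J (y axis, log2) against the mean of the other 30 strains (x axis, log2), with the 147 genes called in LP/J as large points and equality as a dashed line. Idi1, Cyp51 and Hmgcs1 lie far above the line, Lpin1 and Cyp2b10 far below it, and Scd1 near it.

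No gene passed the test of the difference between LP/J and the mean of the other 30 strains (limma, 0 of 18146 adjusted, 1166 or 6.43% at an unadjusted p under 0.05). Against the spread of effects among those 30 strains, 0 passed as well, with 671 (3.7%) unadjusted.

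Genes that led the response of the other strains had mixed values in LP/J. The desaturase Scd1 read 12.56, 12.58, 12.67 and 12.73 in vehicle and 11.19, 11.89 and 10.19 in isoniazid animals, a difference of -1.54 (limma adjusted p = 0.13) beside -1.49 in the others. The groups did not overlap, though the gene was not called. The acyl-CoA thioesterase Acot2 differed by -1.45 (limma adjusted p = 0.051), Acot1 by -1.32 and Csad, of taurine synthesis, by -0.98, each also without overlap. The 2 Acot2 probe sets ranged from -1.45 to 0.42. Psat1, of serine synthesis, differed by 2.21, from 2.45 to 3.60 in vehicle to 4.42, 4.89 and 7.08 in isoniazid animals, without a call (limma adjusted p = 0.18). The lipid droplet gene Cidec differed by 1.15, with groups that overlapped because isoniazid animal 1 was at 5.16, and it passed without that animal (1.75, limma adjusted p = 0.032). Of 99 genes called in the others with a mean effect of at least 0.5 in size, 89 had the same sign in LP/J.

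A few of these leaders ranked low in LP/J. Cyp2b10, the classic target of the xenobiotic receptor CAR, read 8.21, 7.46, 7.46 and 6.77 in vehicle and 6.04, 6.79 and 6.87 in isoniazid animals. Its difference of -0.91 was the lowest of 31 strains, beside a mean of 0.93 in the others with values above 0 in 25 of 30. Alas1, the first enzyme of heme synthesis, read 12.25, 12.01, 11.64 and 11.09 in vehicle and 11.21, 11.86 and 11.50 in isoniazid animals. Its difference of -0.22 ranked 30th, beside 0.83 in the others. Apoa4, a plasma apolipoprotein, differed by 0.25 and ranked 30th, beside 0.94. Tkfc, which phosphorylates products of fructose breakdown and was chosen after its values were seen, differed by -0.06 and ranked 31st, and it was above 0 in all 30 other strains. Low values were not confined to LP/J. In 129S1/SvImJ, Cyp2b10 differed by -0.36, Alas1 by 0.07 and Tkfc by 0.15. C57Bl/6J had -0.29 for Cyp2b10 and 0.19 for Tkfc, but 0.93 for Alas1. KK/HIJ had -0.16 for Cyp2b10 and -0.46 for Alas1, but 0.61 for Tkfc.

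The vehicle level of LP/J was the highest of 31 strains for Tkfc, the 2nd for Apoa4, the 3rd for Alas1 and the 24th for Cyp2b10. As with Glud1, the vehicle arrays enter both level and effect, so a high level and a low effect are not independent. For Cyp2b10 the difference from the others was -1.84 (95% interval -2.90 to -0.79, limma adjusted p = 0.40) and for Alas1 -1.06 (-1.75 to -0.37, limma adjusted p = 0.48), so neither passed over all genes. The LP/J effects themselves had intervals of -1.95 to 0.13 for Cyp2b10 and -0.90 to 0.46 for Alas1. The means of the others, 0.93 and 0.83, lie outside these intervals. However, the intervals are not adjusted and both genes were picked out here by their low ranks, which favours such a gap, so no conclusion is drawn from it. Against the spread of the other strains neither gene passed (limma adjusted p = 0.9993 for both).

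Outside cholesterol synthesis, few genes of the lists were called. The proteasome list had 21 of 22 members above 0, with a median of 0.20 beside 0.17 in the other strains, and none was called. Its median was 0.38 without animal 1. In the endoplasmic reticulum folding list 1 of 23 genes was called higher (Sec11c) and 1 lower (Herpud1), with a median of 0.13 beside 0.15, or 0.31 without animal 1. Oxidative phosphorylation genes were above 0 in 25 of 31 with none called and a median of 0.08, or 0.14 without animal 1, and the fatty acid synthesis list had 1 of 19 called, Fads2, with a median of 0.25 beside 0.17, which was 0.08 without animal 1. The heat shock list had a median of 0.20 and no call, and 0.37 without animal 1 with 1 call, the mitochondrial chaperone Hspa9. The 5 Hspa9 probe sets ranged from -0.40 to 0.52 with all animals.

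Several lists had medians below 0 and few or no calls. Immediate early genes, the transcripts that respond within minutes to stimuli, were below 0 in 14 of 16 with a median of -0.61, the 28th of 31 strains, and Jun read 6.38 to 7.90 in vehicle and 4.23, 6.49 and 6.32 in isoniazid animals. Acute phase genes were below 0 in 20 of 26, with haptoglobin (Hp) at -0.34 and all treated animals below all controls. Interferon-induced genes had a median of -0.31, beside -0.33 in the other strains. The glycolysis and fructose list had a median of -0.01, the lowest of 31 strains, beside 0.14 in the others, and 1 of 13 genes, Pgk1, was called. Without animal 1 the median was 0.02, and the lowest of the other strains was at 0.01, so that rank rested on this animal. Lists of CAR and PXR targets (median -0.08), heme enzymes (-0.02), vitamin B6 enzymes (-0.03), NRF2 targets (-0.06), p53 targets (-0.24) and fat oxidation genes (0.05) had no called gene. Without animal 1 the p53 median was -0.03, that of fat oxidation 0.12, that of vitamin B6 enzymes 0.02, that of NRF2 targets 0.00074 and that of heme enzymes -0.01.

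**Figure D5:**
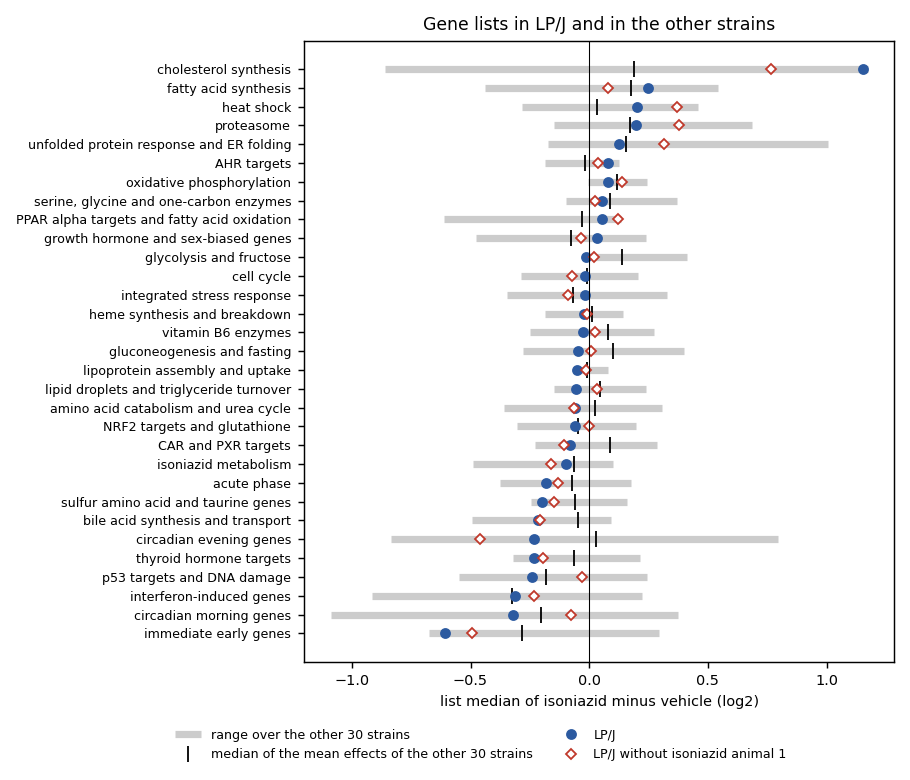
Median isoniazid-minus-vehicle difference (x axis, log2) of each of 31 gene lists in LP/J with all animals (filled circles) and without isoniazid animal 1 (open diamonds), with the range over the other 30 strains (grey bars) and the median of their mean effects (ticks). The cholesterol synthesis list stands at 1.15, and every other list lies between -0.61 and 0.25.

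Markers of other cells gave few calls. Of the 14 cell type lists, pericentral hepatocytes had 1 called gene (Cyp27a1) and sinusoidal endothelium had 1, Stab2, a scavenger receptor chosen after its values were seen, which fell by 0.93 (limma adjusted p = 0.013) but differed by -0.60 without animal 1 (limma adjusted p = 0.38). The mean Kupffer cell level over 16 markers was 5.58 to 6.62 in isoniazid and 5.81 to 6.46 in vehicle animals, with 3 markers above 0, and the mean endothelial level over 14 markers was 5.34 to 6.37 and 5.65 to 6.65. Isoniazid animal 1 had the lowest level of both. The median difference of the Kupffer cell markers was -0.10, but 0.20 without animal 1. That of the endothelial markers was -0.11, but 0.12 without animal 1. No marker of these lists was listed at 0, since the lowest deposited value was 1.15. The pericentral level was lower in each isoniazid animal (9.58, 9.81 and 9.74) than in any vehicle animal (9.86 to 9.93), with an exact two-sided permutation p of 0.057, the smallest that 3 against 4 animals can give, and 0.82 after adjustment over 20 array measures. The part of cell composition in the gene results was not tested.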

How the data were processed

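Liver RNA was measured on Affymetrix 3' expression arrays. Per the submitters' processing notes, the deposited log2 values came from RMA run in Affymetrix Power Tools, with versions not given in the sources used here. The quantile normalization in RMA ties arrays together, and RMA values tend to compress differences at low intensity. Of 44721 probe sets, 34717 had 1 gene symbol, and the brightest probe set stood for each of 18146 genes. limma 3.58.1 (R 4.3.3) fitted 62 strain and treatment groups over 235 arrays (173 residual df), with Benjamini-Hochberg adjustment. Contrasts were LP/J isoniazid minus vehicle, its difference from the mean effect of the other 30 strains, and its position in their spread. Array measures used exact permutation tests. Tests were checked on simulated data, where 87% of 100 genes changed by 1 log2 unit in LP/J were recovered in the LP/J contrast. The comparisons with the mean and with the spread of the other strains gave 9 and 15 calls outside the changed genes. The simulation gave all strains the same effect and held no outlying array, so it cannot judge how the tests handle either. P-values measure the spread between animals, except in the comparison with the spread of the other strains, where the strain is the replicate.

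The members and lists were chosen with earlier results of these data known. Genes are named by a written rule: the 12 highest and 12 lowest called genes without overlap, up to 4 genes of each list by test statistic, the 10 highest and lowest mean effects of the other strains, and a fixed set. Same-numbered LP/J animals had deviations correlated at 0.12, -0.08 and 0.07, so the numbers do not pair them. The precision is limited by the number of arrays. Per the labels, the LP/J arrays were scanned on 4 dates, 2 of which held both groups. All 147 called genes kept their sign within each of these. For the 135 called genes without overlap that sign was fixed in advance, so the agreement is no separate evidence.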

Additional observations from a re-analysis of the deposited data

Results flagged for a closer look

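In LP/J vehicle livers, 1 of 4 animals lay apart from the other 3 for 8 of the 173 genes examined (4.62%) and for none of 20 array measures, measured as its gap to the nearest animal divided by the range (a share above 0.829 passes Dixon's 95% limit, which chance passes in about 1 of 20 groups, so the count is near the chance share). The share was 0.966 for Cyp17a1, where vehicle animal 2 was high at 11.01, and 0.885 for Srsf5, where animal 4 was low at 10.02. It was 0.847 for Ppox, of heme synthesis, 0.831 for the aldehyde dehydrogenase Aldh1a7, 0.831 for the carboxylesterase Ces1g and 0.901 for its relative Ces1e. It was 0.871 for the kinase Plk3 and 0.914 for the aspartate aminotransferase Got1. Cyp17a1 and Srsf5 are the called genes among them, and their isoniazid animals lay below every vehicle animal.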

How the results depend on the processing

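The LP/J count of 147 called genes became 0 with the 7 LP/J arrays fitted alone (1155 unadjusted), 225 with scan date as a term and 307 without the narrow-spread arrays. It lay between 76 and 211 when 1 LP/J animal was left out: 76 without vehicle animal 1, 79 without vehicle animal 2, 3 or isoniazid animal 1, 88 without isoniazid animal 3. Median centring gave 84 higher and 72 lower, against 63 and 84. With the replicate number as a block 86 were called, and in the comparison with the mean of the other strains and in that with their spread the block gave 2 each, but the numbers do not pair animals.

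The comparison with the mean of the other strains gave 1 call with scan date, median centring, probe set means, dim genes left out or 17 other strains without steatosis (Tardbp, but Myom2 for probe set means), 2 without narrow-spread arrays (Tardbp and Sel1l3) and 0 to 26 with 1 LP/J animal left out. The 26 came without isoniazid animal 3 and included Hmgcs1, Idi1, Cyp51, Dhcr7, Lss and Lpin1. The comparison with the spread gave 0 to 2. Without vehicle animal 4 its calls were Anxa9 and Zhx3. These genes were named after their values were seen.

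The cholesterol list, examined in settings chosen after seeing the data, kept a positive median (0.76 to 1.44 with 1 animal left out), and its called genes numbered 12, 0 with the 7 arrays alone and 4 without narrow-spread arrays, and 0 to 12 with 1 animal left out, the 0 without isoniazid animal 1 and 7 without vehicle animal 3. Among the 42 called genes named, 488 of 669 alternative values stayed called, 181 lost the call and 0 reversed. The number of arrays limits these counts.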
